A study of Mus musculus with 12 samples.

Results

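The 38 genes described here mark macrophages and other white blood cells: surface receptors, scavenger receptors, complement chains, lysosomal proteins, pan-leukocyte proteins, signalling proteins of the blood lineage and the myeloid transcription factor PU.1 (gene Spi1). They were taken by name from a fixed list, each read on the probe set (a group of short probes for 1 transcript) with the highest mean over the 12 arrays, and all 38 were found among the 18193 genes with a probe set of their own. The cultures were labelled as mouse embryonic fibroblasts (MEFs) of strain C57BL/6, connective tissue cells grown from embryos, and the series asks how STAT5, a transcription factor activated by growth hormone, acts on gene activity. Wild-type MEFs (WT), Stat5-null MEFs (KO) and Stat5-null MEFs infected with a retrovirus carrying a STAT5A vector (S5) were each left without stimulation or given growth hormone (GH) for 120 minutes, with 2 arrays in each of the 6 groups. All S5 cells therefore also lack the endogenous Stat5 genes. The labels name no vehicle for the hormone and no KO culture with an empty vector, and the sources used here do not give the promoter of the vector. WT and Stat5-null MEFs are different cell preparations, and whether KO and S5 cells share a preparation is not known here. Genotype and preparation thus cannot be told apart. The duplicates of a group are described as biological replication in the design text, which does not say whether they came from separate embryos or cultures. A p-value here thus measures the spread between these arrays, pooled over all 6 groups.

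Macrophages are tissue phagocytes. In the embryo they appear early and spread through every tissue, and cell preparations made from whole embryos can carry them along with fibroblasts. They live on signals through the CSF1 receptor (Csf1r), bind antibody-coated particles through Fc receptors that signal by way of the ITAM adaptors Fcer1g and Tyrobp, take up debris with lectins and scavenger receptors such as Mrc1 and Msr1, digest it with lysosomal enzymes, and kill microbes with an oxidase whose catalytic subunit is Cybb. PU.1 drives this programme by binding purine-rich sites, many of them next to the start sites of myeloid genes. Because the RNA came from whole cultures, fewer cells of a type and less RNA per cell cannot be told apart in any value below, and no cell was counted.

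Levels are deposited values read as log2 signal. A value below 4 lies in a low range that held 54.2 to 55.1 percent of all probe sets on each array. There the values of most markers barely moved, though some did, such as Mpeg1 at 2.44 to 3.96 in KO. A gene with such values is described as being in the low range, not as absent. The number of arrays limits the precision. For most markers the KO and S5 arrays lay in the low range, so the pooled spread is not the spread of the WT arrays alone. Stat5a and Stat5b lay in the low range on all KO and S5 arrays and between 8.98 and 12.39 on WT arrays, and Socs2, a feedback inhibitor induced by STAT5, lay at 11.42 or more on the GH arrays of WT and S5 against at most 8.96 without GH. Fibroblast identity was present throughout: Col1a1, Col1a2 and Col3a1 (fibrillar collagen chains) lay between 14.31 and 14.84 on all 12 arrays, and the mean of 12 fibroblast genes lay at 12.94 to 13.12 in WT, 12.37 to 12.51 in KO and 10.58 to 11.00 in S5. Thy1, a fibroblast surface protein, lay at 14.07 or more in WT and KO and at 2.20 to 5.09 in S5. The 3′ minus 5′ difference of the Gapdh control probe sets, a measure of RNA integrity, was 0.89 to 1.22 in WT, 0.94 to 1.11 in KO and 1.44 to 1.62 in S5. For the Actb control probe sets the difference was 2.55 to 3.13 in WT, 2.71 to 3.07 in KO and 3.04 to 3.15 in S5.

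One array stood apart for these genes before any comparison was made. On untreated WT replicate 1, 29 of the 38 markers were at or above 4 and their mean level over all 38 was 7.27, while untreated WT replicate 2 had 34 markers there and a mean of 9.05. The GH-treated WT arrays had 35 and 34 markers at or above 4 and means of 9.12 and 9.14. All 29 markers that were measured on both untreated WT arrays were higher on replicate 2, by a median of 1.57 (range 0.63 to 3.56) on the log2 scale, against a median of -0.02 over 10910 genes measured on both. A gap of at least 1 in that direction was found for 157 of those genes (1.44 percent), and 26 of the 157 were among the 38 markers. The gap varied with the signal: its median was 2.15 where the mean WT level lay between 4 and 8, 1.82 between 8 and 10, 1.57 between 10 and 12, and 1.24 from 12 up. The 12 fibroblast genes differed by a median of -0.07 between the same arrays, and the GH-treated WT pair differed by a median of 0.06 over 34 markers. The Gapdh difference was 1.22 on untreated WT replicate 1 and 1.04, 0.93 and 0.89 on the other WT arrays. The Actb difference was 3.13 on untreated WT replicate 1 and 3.0, 2.83 and 2.55 on the others. The part of either in the gap was not tested.

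The first comparison asks how the marker genes differed between WT and Stat5-null cultures. The markers were far higher in WT. With GH and untreated arrays pooled, limma's moderated test with Benjamini-Hochberg adjustment called 36 of 38 higher in WT than in KO and none lower, where 17.2 percent of all genes were called higher in WT. The median difference over the 38 was 5.72 on the log2 scale against 0.00 over all genes, and the 4 WT arrays lay apart from the 4 KO arrays for 36 markers. Against S5, 36 of 38 were again called higher in WT (20.1 percent of all genes were), with a median of 6.06 against 0.02 over all genes and no overlap of arrays for 37. Both comparisons use the same WT arrays, and the share of all genes without overlap was not counted. The 2 markers not called were Itgam and Cx3cr1 in each. KO stood in the low range for most markers, so 27 of the differences from KO and 33 of those from S5 can only be given as bounds, with a low group set to 4. Without untreated WT replicate 1 the count of calls against KO stayed at 36 and the median difference was 6.25, and without replicate 2 it was 36 and 5.25.

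**Figure D1:**
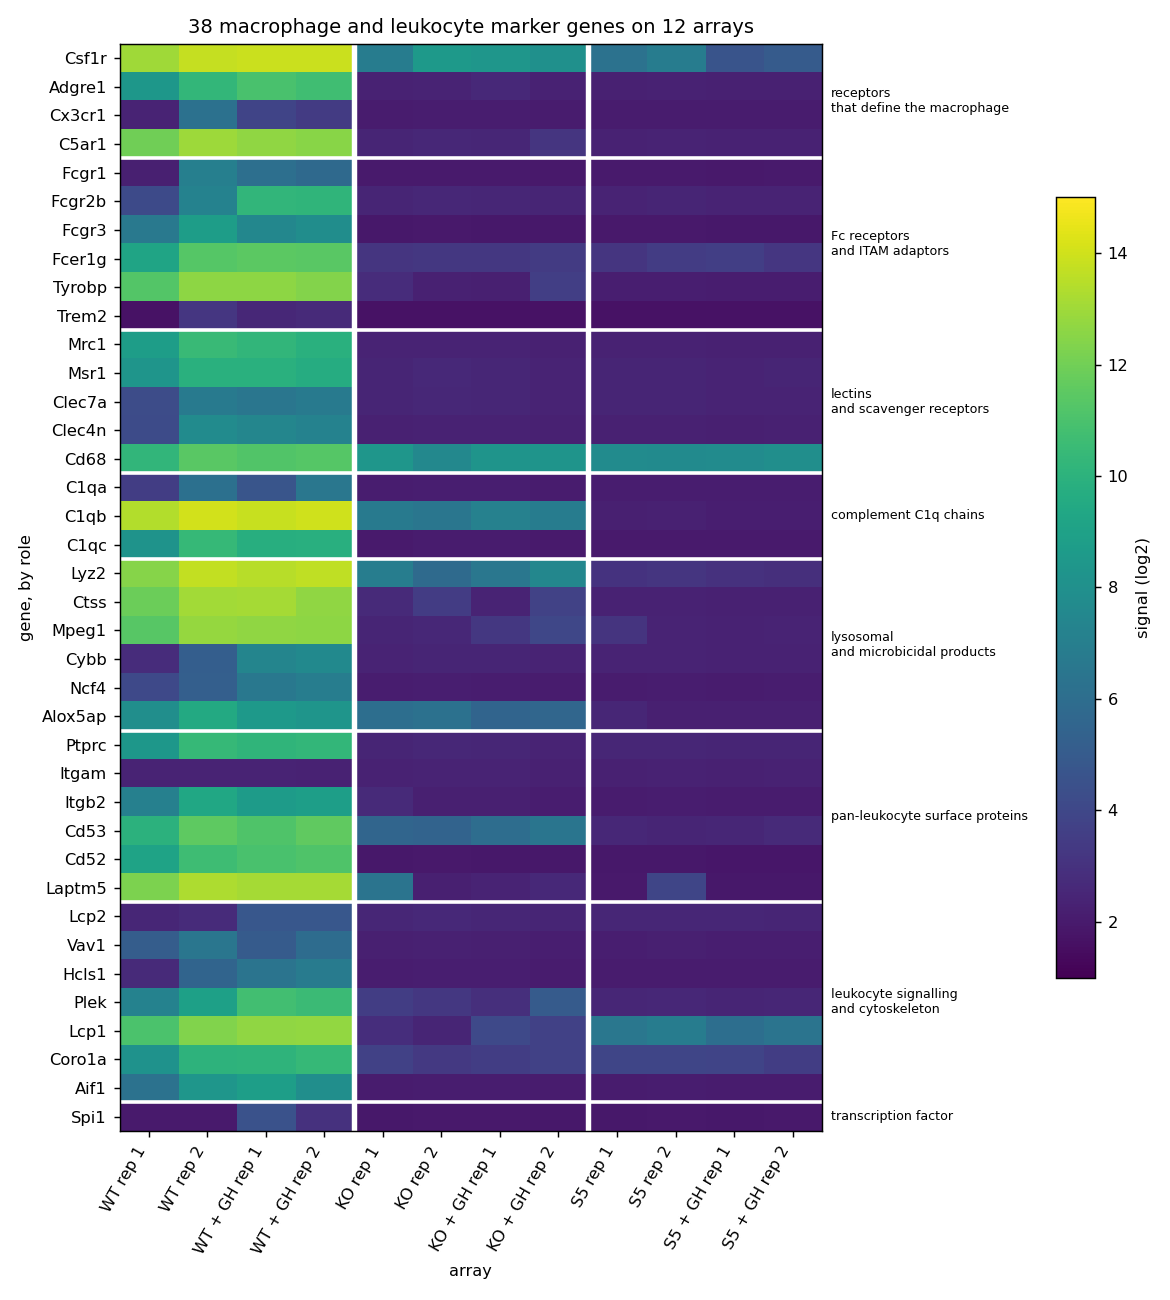
Level of each of the 38 marker genes (rows, grouped by role) on each of the 12 arrays (columns), coloured by log2 signal from dark (low) to yellow (high). WT arrays are bright for most rows, with replicate 1 of untreated WT dimmer, whereas KO arrays hold 6 or 7 and S5 arrays 3 markers at or above 4.

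Among the receptors that define macrophages, C5ar1 is the receptor for the complement fragment C5a. It read 11.97 and 12.93 on untreated WT arrays, 12.68 and 12.51 on GH-treated WT arrays, 2.47, 2.57, 2.50 and 3.18 on KO arrays and 2.32 to 2.39 on S5 arrays. All WT arrays thus lay far above all others, and the pooled difference from KO was 9.84 ± 0.22 (SE, adjusted p = 1.21e-07, limma), or at least 368-fold. Csf1r read 12.99 and 13.77 without and 13.89 and 13.88 with GH in WT, and its difference from KO, where it was also measured, was 5.67 ± 0.38 (SE, adjusted p = 2.44e-05, limma), a 51.1-fold difference. Adgre1 (F4/80, an adhesion receptor used to recognise mouse macrophages) read 8.39, 10.29, 10.97 and 10.69 on the WT arrays and 2.28 to 2.63 on all others, at least 67.8-fold higher in WT than in KO. Cx3cr1, the fractalkine receptor of monocytes and many tissue macrophages, behaved differently. It read 6.23 on untreated WT replicate 2 but 2.42, 3.88 and 3.45 on the other WT arrays, and neither difference passed the test (limma adjusted p = 0.0752 against KO and 0.0648 against S5). Its WT minus KO difference was 2.87 without untreated WT replicate 1 and 0.96 without replicate 2. The gap between those arrays is then no longer part of the spread, so no call is drawn from this.

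All 6 Fc receptors and ITAM adaptors were called higher in WT than in KO. Tyrobp (DAP12), the adaptor of many activating myeloid receptors, read 11.25, 12.64, 12.61 and 12.41 on the WT arrays and no more than 3.61 elsewhere, at least 300-fold higher than in KO. Fcer1g, the common Fc receptor gamma chain, read 9.19, 11.31, 11.45 and 11.42 in WT and at most 3.62 elsewhere. Both adaptors thus stood well above the range of the KO and S5 arrays. Fcgr3, a low-affinity receptor for antibody, read 6.64, 8.79, 7.47 and 7.86 in WT, and Fcgr2b, the inhibitory receptor, read 4.13 and 7.20 without and 10.22 and 10.14 with GH. These receptors are close paralogs, and the probe set of Fcgr2b is of a kind that can match several transcripts, so signal of one on the other's probes cannot be separated here. Fcgr1, the high-affinity receptor, read 2.21 on untreated WT replicate 1 and 7.05, 6.11 and 5.81 on the other WT arrays. Its call against KO (3.29 ± 0.90 SE, limma adjusted p = 0.0234) was lost under 11 of 24 alternative settings. Trem2, a lipid-sensing receptor that signals through Tyrobp, never left the low range. It read 1.70, 3.22, 2.56 and 2.68 in WT and 1.66 to 1.69 elsewhere, and its call (0.87, limma adjusted p = 0.0476) was lost under 17 of 23 alternatives.

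The lectins and scavenger receptors, which bind sugars, modified lipoproteins and debris, were all called higher in WT (5 of 5). Mrc1, the mannose receptor, read 8.78, 10.51, 10.21 and 9.91 in WT and 2.31 to 2.41 in KO and S5. Msr1 (scavenger receptor A) read 8.30, 9.86, 9.89 and 9.66 in WT and at most 2.60 elsewhere. The fold over KO was at least 57.8 for Mrc1 and at least 43.0 for Msr1. The fungal sensors Clec7a (dectin-1) and Clec4n (dectin-2) lay closer to the low range, at 4.24 and 4.18 on untreated WT replicate 1 and 6.51 to 7.74 on the other 3 WT arrays. Cd68, a lysosomal membrane glycoprotein, differed from its group in being well measured everywhere: it read 10.20, 11.40, 11.20 and 11.32 in WT, 8.37, 7.55, 8.26 and 8.25 in KO and 7.75, 7.70, 7.74 and 7.91 in S5. Its difference between WT and KO was 2.93 ± 0.27 (SE, adjusted p = 0.000129, limma), a 7.6-fold difference.

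C1q, the recognition molecule of the classical complement pathway, is built of 3 chains and made largely by macrophages. C1qb read 13.41, 14.04, 13.80 and 13.98 in WT. C1qc read 8.17, 10.40, 9.75 and 9.85 in WT and 1.99 to 2.06 elsewhere. C1qa read 3.56, 6.19, 4.67 and 6.53 in WT and 2.09 to 2.18 elsewhere. The levels of different chains come from different probes and are not compared with each other. All 3 chains were called higher in WT than in KO and in S5, and C1qa lost its call against KO under 2 of 24 alternatives.

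The lysosomal and microbicidal products serve to digest and kill what macrophages take up. Lyz2 (lysozyme) read 12.44, 13.71, 13.49 and 13.66 in WT, Ctss (cathepsin S) 11.84, 13.08, 13.10 and 12.66, and Mpeg1 (perforin-2) 11.37, 12.79, 12.65 and 12.63. Ctss was at least 408-fold and Mpeg1 at least 329-fold higher in WT than in KO, where both stayed below 4 on every array. Lyz2 is a near copy of Lyz1, and its probe set was not checked against it. The oxidase genes Cybb and Ncf4, a cytosolic regulator of the same enzyme, lay in or near the low range on untreated WT replicate 1: Ncf4 read 4.09, 5.23, 6.62 and 6.94, and Cybb 2.79, 5.21, 7.35 and 7.66. Alox5ap, which passes arachidonate to the leukotriene pathway, read 7.90, 9.49, 8.56 and 8.30 in WT. All 6 were called higher in WT than in KO, with Cybb losing its call on untreated arrays alone (limma adjusted p = 0.126).

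Of the pan-leukocyte surface proteins, 5 of 6 were called higher in WT. Ptprc (CD45), the phosphatase carried by nearly all white blood cells, read 8.39, 10.38, 10.17 and 10.26 in WT and 2.41 to 2.54 elsewhere, at least 55.7-fold higher than in KO. Laptm5, a lysosomal protein of blood cells, read 12.22, 13.30, 13.09 and 13.11 in WT, Cd53 (a tetraspanin) 9.97, 11.54, 11.17 and 11.56, and Cd52 9.10, 10.65, 10.96 and 11.15. Itgb2, the beta chain of the leukocyte integrins, read 7.08, 9.34, 8.71 and 8.86. Itgam (CD11b), one of the alpha chains that pair with Itgb2, was in the low range on all 12 arrays, at 2.30 to 2.42. This marker has 1 probe set here, and a probe set that reads low in every group says nothing about the level of its gene.

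All 7 signalling and cytoskeletal genes were called higher in WT than in KO. Lcp1 (L-plastin, an actin bundler) read 11.05, 12.35, 12.65 and 12.75 in WT, Plek (pleckstrin, a substrate of protein kinase C) 7.20, 8.93, 10.75 and 10.56, and Coro1a (coronin 1A) 8.13, 10.03, 10.09 and 10.39. Aif1 (Iba1), an actin-binding protein used as a marker of macrophages and microglia, read 6.29, 8.38, 8.85 and 7.91 in WT and at most 2.12 elsewhere. Vav1, a signalling protein of blood cells, read 5.11, 6.48, 5.01 and 5.93. Hcls1, a cortactin relative, read 2.67, 5.50, 6.37 and 6.83, and its call was lost on untreated arrays alone (1.95 against KO with limma adjusted p = 0.107, and adjusted p = 0.0839 against S5). Lcp2 (SLP-76), an adaptor below immune receptors, was in the low range on the untreated WT arrays and its call in the pooled comparison (1.19 ± 0.05 SE, limma adjusted p = 2.01e-06) was absent on untreated arrays alone (0.08, limma adjusted p = 0.547).

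Spi1, the gene of PU.1, barely left the low range. It read 2.03 and 2.0 on untreated WT arrays, 4.54 and 2.98 with GH, and 1.91 to 1.96 on all KO and S5 arrays. Only 1 of 12 arrays was above the low range, and Spi1 has 1 probe set here. The pooled difference from KO was 0.95 ± 0.29 (SE, adjusted p = 0.0376, limma) and was not called under 14 of 23 alternatives, leaving out untreated WT replicate 1 (limma adjusted p = 0.0895) or replicate 2 (0.0868) among them, and no fold is given because the WT mean lies in the low range. The promoters of the markers were also read for the core of the PU.1 site, GAGGAA on either strand, which does not bear on the level of Spi1. The RefSeq promoter table (GRCm38.p6) held 27 of the 38 genes in 32 windows. Within 250 bases before the start site, 18 of 32 windows (56.2 percent) held the motif, against 22.8 percent of 18109 windows of genes with a probe set and 23.3 percent of all 32851 windows. Within the last 100 bases the shares were 43.8 percent (14 of 32) and 9.45 percent. Some genes have several overlapping windows; counted by gene, 12 of 27 markers (44.4 percent) and 11.1 percent of genes with a probe set held it in the last 100 bases. A match is a description of letters, not a site shown to be bound.

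The 100 bases before the start site are shown for markers of different roles with the motif close to the start, for Itgam, which has it although its probe set read low everywhere, and for 3 markers without it; they were chosen after their windows and values were seen. Capitals mark GAGGAA or its reverse complement TTCCTC, each sequence runs 5′ to 3′ in the direction of the gene, and the build is GRCm38.p6. The windows are C1qb at chr4:136886201-136886300 (minus strand), Laptm5 at chr4:130913216-130913315 (plus), Mrc1 at chr2:14229314-14229413 (plus), Plek at chr11:17008719-17008818 (minus), Fcgr1 at chr3:96293970-96294069 (minus), Itgam at chr7:128062540-128062639 (plus), C5ar1 at chr7:16259339-16259438 (minus), Cybb at chrX:9469325-9469424 (minus) and Fcgr2b at chr1:170976072-170976171 (minus).
C1qb: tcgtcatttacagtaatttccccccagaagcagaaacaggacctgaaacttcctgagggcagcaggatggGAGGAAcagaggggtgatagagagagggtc
Laptm5: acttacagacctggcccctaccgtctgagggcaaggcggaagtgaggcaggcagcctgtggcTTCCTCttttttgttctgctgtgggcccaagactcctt
Mrc1: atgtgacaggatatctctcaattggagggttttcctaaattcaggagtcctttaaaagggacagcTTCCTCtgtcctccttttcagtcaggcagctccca
Plek: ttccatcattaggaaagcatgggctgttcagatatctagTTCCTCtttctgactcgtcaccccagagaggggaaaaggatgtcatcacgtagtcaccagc
Fcgr1: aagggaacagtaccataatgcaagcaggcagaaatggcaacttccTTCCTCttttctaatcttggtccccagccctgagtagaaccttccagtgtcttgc
Itgam: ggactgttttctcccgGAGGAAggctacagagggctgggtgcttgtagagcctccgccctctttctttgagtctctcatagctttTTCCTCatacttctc
C5ar1: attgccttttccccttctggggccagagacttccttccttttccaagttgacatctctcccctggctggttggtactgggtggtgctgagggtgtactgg
Cybb: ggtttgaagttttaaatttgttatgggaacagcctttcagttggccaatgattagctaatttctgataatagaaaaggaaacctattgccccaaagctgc
Fcgr2b: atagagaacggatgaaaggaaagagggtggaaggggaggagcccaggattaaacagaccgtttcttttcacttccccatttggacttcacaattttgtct
In the windows with a match, its first base lies 30 bases before the start site in C1qb, 38 in Laptm5, 35 in Mrc1, 61 in Plek, 55 in Fcgr1, and 84 and 15 in Itgam. C5ar1 has none, which says only that these letters are not in this window.

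The second comparison asks which markers remained measurable without Stat5 and whether the STAT5A-infected cells resembled the KO cells in them. On each KO array 6 or 7 of the 38 markers were at or above 4, and on each S5 array 3 were. Csf1r, Cd68, C1qb, Lyz2, Alox5ap and Cd53 were measured on all 4 KO arrays. Csf1r, Cd68 and Lcp1 were measured on all 4 S5 arrays. Between KO and S5, 5 markers were called higher in KO (16.9 percent of all genes were) and 1 was called higher in S5 (20.3 percent were), while 29 of the 38 were in the low range on all arrays of both and could not be compared. The split of all calls between higher in KO and higher in S5 depends on scaling, since 45.5 percent of calls were higher in KO as deposited and 56.2 percent with each array centred on its median.

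Csf1r read 6.87, 8.60, 8.33 and 8.03 on KO arrays and 6.29, 6.87, 4.66 and 5.02 on S5 arrays, with the highest S5 array at the level of the lowest KO array. The difference was 2.25 ± 0.38 (SE, adjusted p = 0.00251, limma), a 4.75-fold difference, and it was not called on untreated arrays alone (1.16, limma adjusted p = 0.181). C1qb read 6.74, 6.50, 7.15 and 6.86 in KO and 2.18 to 2.26 in S5. Lyz2 read 6.96, 5.85, 6.56 and 7.47 in KO and 2.88 to 3.17 in S5. The fold of KO over S5 was at least 7.02 for C1qb and at least 6.55 for Lyz2. Alox5ap read 6.05, 6.20, 5.51 and 5.61 in KO and at most 2.49 in S5, and Cd53 read 5.54, 5.43, 6.01 and 6.44 in KO and at most 2.69 in S5. None of these 4 genes, all of them called, overlapped between KO and S5, and the share of all genes without overlap was not counted. Lcp1 went the other way: it read 2.84, 2.44, 4.09 and 3.72 in KO and 6.57, 6.87, 6.04 and 6.36 in S5, a difference of -3.19 ± 0.28 (SE, adjusted p = 7.4e-05, limma). Laptm5 read 6.38 on KO replicate 1 and 2.24, 2.42 and 2.62 on the other KO arrays, so its KO mean of 3.42 rests on 1 array.

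**Figure D2:**
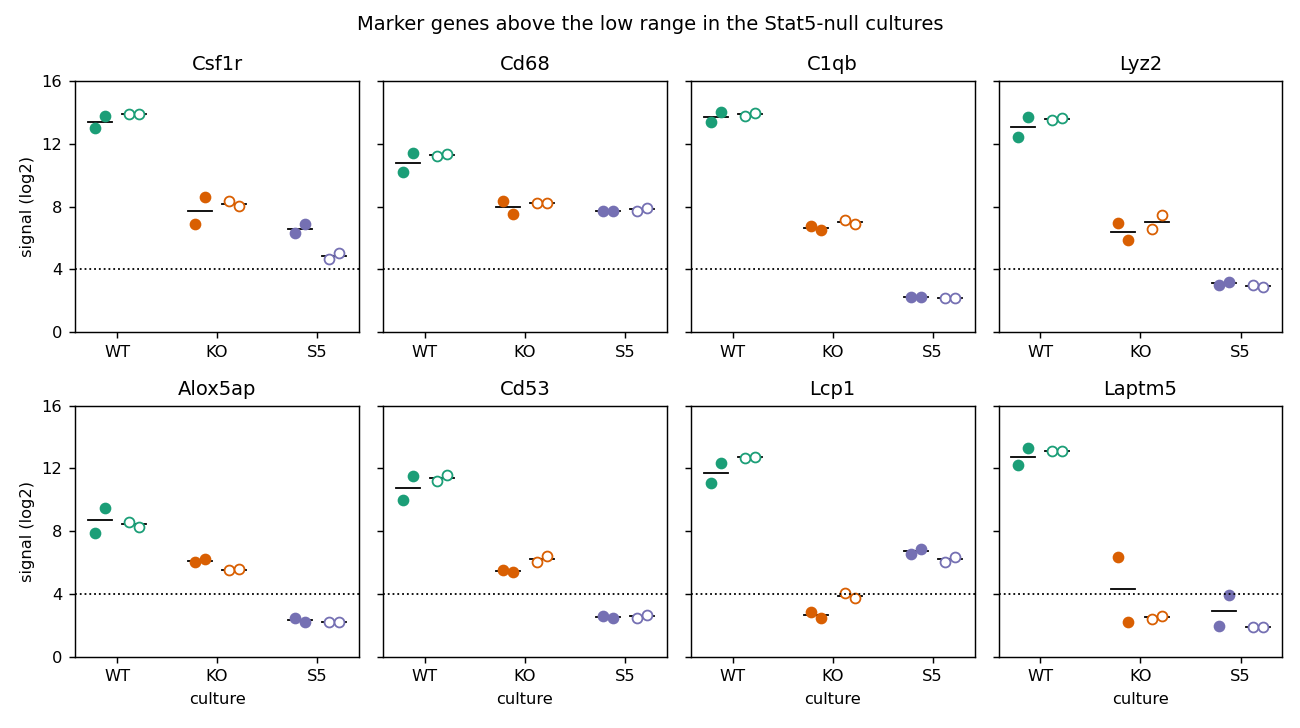
Log2 signal on each array for 8 marker genes in WT, KO and S5 cultures; filled points are untreated arrays, open points GH-treated arrays, short lines the mean of a pair, and the dotted line the bound of the low range at 4. C1qb, Lyz2, Alox5ap and Cd53 lie above the line in KO and below it in S5, Lcp1 lies above it in S5, and Laptm5 lies above it on a single KO array.

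Several of these residual levels depend on which probe set is read. The 38 markers had 69 probe sets, and 18 markers had more than 1. Csf1r was measured in KO and S5 on its brightest probe set alone. The other 2, at 8.85 to 9.92 and 4.59 to 7.16 in WT, read 2.21 to 2.73 and 2.86 to 3.88 in KO. In S5 they read 2.15 to 2.30 and 2.81 to 2.88. C1qb was measured in KO on its brightest probe set and, at 3.91 to 5.57, on a second, while the other probe set read 8.83 to 10.77 in WT and 1.88 to 1.94 in KO. Both C1qb probe sets that read above the low range in KO, like that of Laptm5, belong to a type that can match unrelated transcripts. The second probe set of Lcp1 read 5.20 to 8.53 in WT and 2.13 to 2.18 in S5. Cd68, Lyz2 and Alox5ap have 1 probe set each. On every probe set of Csf1r, C1qb, Laptm5 and Lcp1 that was measured on all WT arrays, the WT arrays lay above all KO arrays.

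The third comparison asks whether 120 minutes of growth hormone moved the markers. In WT, 4 of 38 were called higher with GH and none lower (3.06 percent of all genes were called higher). At an unadjusted p under 0.05 by limma's test there were 10 markers, and the share of all genes at that threshold was not counted. The median change over the 38 was 0.65 on the log2 scale against -0.04 over all genes. Its size depended on the untreated array it was read against: against untreated replicate 1 alone, 37 of 38 markers had a higher treated mean, with a median of 1.65, and against replicate 2 alone 13 were higher and 24 lower, with a median of -0.14. Both treated arrays lay between the untreated arrays for 18 markers, above both for 13 and below both for 1, which was Itgam in the low range. The shares of all genes in these positions were not counted. Without untreated replicate 1, 6 markers were called higher and 7 lower (2.2 and 2.05 percent of all genes), and without replicate 2, 23 were called higher and none lower (2.28 and 1.8 percent of all genes). With 1 array left in a group, its spread is taken to be that of the other groups. For most markers the KO and S5 groups lay in the low range and moved little, so these counts are not used as support.

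**Figure D3:**
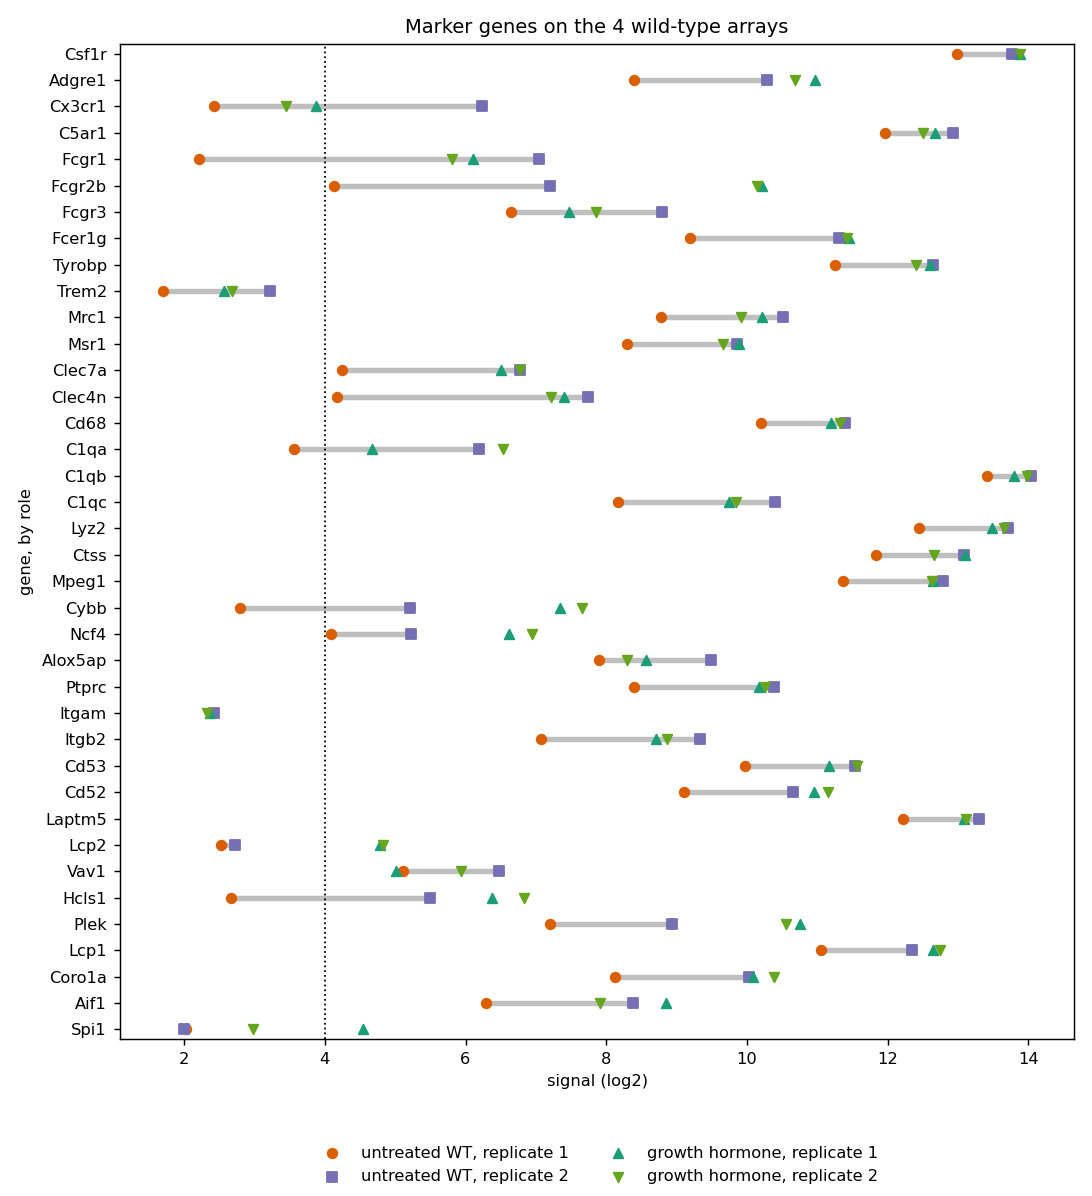
Log2 signal of each of the 38 markers (rows, by role) on the 4 WT arrays; the grey bar joins the untreated arrays and the dotted line is the bound of the low range at 4. Untreated replicate 1 lies left of replicate 2 in 37 of 38 rows, and both treated arrays lie inside the bar for 18 markers and to its right for 13, Fcgr2b, Cybb, Ncf4 and Lcp2 among them.

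The 4 markers called higher with GH belong to Fc receptors, the oxidase and immune receptor signalling. Fcgr2b read 4.13 and 7.20 without and 10.22 and 10.14 with GH, a change of 4.51 ± 0.81 (SE, adjusted p = 0.0217, limma), or 22.8-fold. Cybb read 2.79 and 5.21 without and 7.35 and 7.66 with GH (3.51 ± 0.64 SE, limma adjusted p = 0.0236); its lower untreated value is in the low range, and with values below 4 set to 4 the change was 2.90. Ncf4 read 4.09 and 5.23 without and 6.62 and 6.94 with GH (2.13 ± 0.31 SE, limma adjusted p = 0.0104, 4.36-fold). In each the treated arrays lay above both untreated arrays. Read without untreated replicate 1, the changes were 2.98 for Fcgr2b, 2.30 for Cybb and 1.55 for Ncf4. Without replicate 2 they were 6.05, 4.71 and 2.70. With 1 untreated array left, the spread came from the treated pair and from KO and S5 arrays in the low range. No call is drawn from those fits. A fit of the WT groups alone called none of these 3 (limma adjusted p = 0.193, 0.199 and 0.149), and Fcgr2b and Cybb also lost their calls without treated replicate 1 (limma adjusted p = 0.0837 and 0.0747) or replicate 2 (0.101 and 0.121), as Ncf4 did without replicate 2 (0.0653). Other probe sets pointed the same way: of the 5 of Fcgr2b, 3 were above the low range with GH, and of the 3 of Cybb a second read 2.69 and 5.74 without and 7.44 and 7.65 with GH.

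Lcp2 was in the low range on both untreated arrays and above it with GH. It read 2.52 and 2.72 without and 4.79 and 4.82 with GH, a change of 2.18 ± 0.07 (SE, adjusted p = 3.56e-06, limma); since both untreated arrays were in the low range, the fold is at least 1.75. Its second probe set read 1.84 and 2.27 without and 5.10 and 6.86 with GH. Leaving out an untreated WT array left the change at 2.09 and 2.28. The call held under all 22 alternatives, but some of these leave 1 array in a WT group. The untreated WT arrays and all KO and S5 arrays were in the low range, where Lcp2 moved little. The SE is pooled over these groups, so the alternatives are not used as support for the rise. Of the markers not called, Plek read 7.20 and 8.93 without and 10.75 and 10.56 with GH (limma adjusted p = 0.0917), Hcls1 2.67 and 5.50 without and 6.37 and 6.83 with GH (0.116), and Spi1 2.03 and 2.0 without and 4.54 and 2.98 with GH (0.0572). For each of these the treated arrays lay above the untreated arrays. Some markers with wide genotype differences changed by less than the gap between the untreated arrays. C1qb changed by 0.17 ± 0.20, C5ar1 by 0.14 ± 0.32 and Laptm5 by 0.35 ± 1.24 (SE). The SE is pooled over all 6 groups. For Laptm5 it takes in the untreated pairs of KO (6.38 and 2.24) and S5 (1.96 and 3.92).

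In KO no marker was called in either direction (0.308 percent of all genes were), with 2 at an unadjusted p under 0.05 by limma's test, Lcp1 and Mpeg1. The share of all genes at that unadjusted threshold was not counted, in KO or in S5. In S5 none was called (7.88 percent of all genes were), with 1 at an unadjusted p under 0.05. That marker was Csf1r, which read 6.29 and 6.87 without and 4.66 and 5.02 with GH. The change was -1.74 ± 0.54 (SE, adjusted p = 0.11, limma), and it passed the threshold with array weights (limma adjusted p = 0.0211). The other 2 Csf1r probe sets were in the low range on all S5 arrays, so the change was read on 1 probe set. The split of all calls in S5 depends on scaling: 46.1 percent were higher with GH as deposited and 32.2 percent after centring, which put the median of all genes at -0.11. Of the 38 markers, 29 in KO and 35 in S5 were in the low range on all 4 arrays of the genotype, so no change could be measured for them.

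The difference between responses was tested directly. In the fit over all groups, Lcp2 was the only marker whose GH response was called different between WT and KO (2.23 ± 0.10 SE, limma adjusted p = 3.8e-05, where 1.27 percent of all genes were called) and between WT and S5 (2.20 ± 0.10 SE, limma adjusted p = 3.42e-05, against 2.92 percent). It was in the low range on every KO and S5 array, at 2.45 to 2.60, so no response could be measured there. Both untreated WT arrays were in the low range too, so these sizes are of the values as deposited. The measured rise in WT is the bound of at least 1.75-fold given above. For Fcgr2b, Cybb and Ncf4 the difference of responses was not called, with limma adjusted p of 0.184, 0.194 and 0.0976 against KO and 0.105, 0.111 and 0.0578 against S5. No marker was called between S5 and KO responses (1.13 percent of all genes were), with 3 at an unadjusted p under 0.05. How many of all genes passed that unadjusted threshold was not counted. Without untreated WT replicate 1, 9 markers were called in each comparison of the WT response with another, 4 higher and 5 lower in WT (1.71 percent of all genes were called against KO and 2.89 percent against S5). Without replicate 2, 21 were called in each, all higher in WT (1.95 and 3.19 percent of all genes).

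Genes that supply or share the macrophage programme were read from lists beside the markers. Of 9 measured growth factors and receptors of myeloid cells, 4 were called higher in WT than in KO and 1 lower, where 17.2 percent of all genes were called higher and 21 percent lower. Csf1, the ligand of Csf1r, was high in all cultures, at 12.24 and 12.35 without and 13.60 and 13.66 with GH in WT, 11.18, 11.28, 11.80 and 11.53 in KO and 11.22, 11.08, 12.50 and 12.39 in S5. It rose with GH in WT by 1.33 (limma adjusted p = 0.000475) and in S5 by 1.29 (0.000735), and in KO the change was 0.44 (0.171). Il34, the other ligand of Csf1r, was in the low range on all 12 arrays. Csf2 (GM-CSF), a growth factor of macrophages and granulocytes, read 2.21 and 2.20 in untreated WT, 9.82 and 9.66 with GH, and at most 2.22 in KO and S5. Csf2rb, the shared beta chain of the receptors for GM-CSF and related cytokines, read 6.54, 8.15, 9.09 and 8.86 in WT, 2.87 to 3.61 in KO and 4.11 to 6.21 in S5.

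Of 18 measured myeloid transcription factors, 8 were called higher and 2 lower in WT than in KO, against 17.2 and 21 percent of all genes. Cebpa read 9.27 to 9.55 in WT, 6.32 to 7.22 in KO and 3.44 to 5.23 in S5. Ikzf1 (Ikaros) read 4.11 and 6.30 without and 8.54 and 8.48 with GH in WT and at most 2.19 elsewhere. It was low on the same untreated WT array as the markers and rose with GH by 3.31 (limma adjusted p = 0.0193). The rise was 2.22 without untreated replicate 1 and 4.40 without replicate 2, and the call was lost without treated replicate 1 (limma adjusted p = 0.0763) or replicate 2 (0.0926). Klf4 was lower in WT than in KO by 0.64 and higher in KO than in S5 by 2.79.

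Genes that distinguish kinds of macrophage were mostly in the low range. Of 15 genes tied to macrophages of particular tissues, 9 were in the low range on all 12 arrays, among them Vsig4, Clec4f and Timd4, and 3 were called higher in WT than in KO, a share near the 17.2 percent of all genes. Folr2, a folate receptor of resident macrophages, was one of these, at 4.33 and 7.56 without and 6.42 and 7.09 with GH in WT and at most 1.99 elsewhere. Marco, a scavenger receptor, read 1.54 and 1.52 in untreated WT, 8.48 and 8.29 with GH, and at most 1.54 in KO and S5. The other was Sall1, which was highest in S5 (10.37 to 11.14) and is not specific to macrophages. Of 6 genes of antigen presentation by MHC class II, H2-Aa, H2-Ab1 and 2 others were in the low range throughout, and Cd74, the invariant chain, read 2.96 and 2.85 without and 7.17 and 6.48 with GH in WT. Cd14, a monocyte and macrophage co-receptor for lipopolysaccharide, read 7.54, 9.12, 10.81 and 11.21 in WT and 4.32 to 6.15 in KO and S5, and Ccr2, a receptor of monocytes, was in the low range on all arrays.

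Most markers of other blood cells were in the low range. All 9 T cell genes, Cd3e, Cd3d and Cd3g among them, all 10 neutrophil genes, S100a8 and S100a9 among them, and all 6 red cell genes were in the low range on all 12 arrays. So were 7 of 8 B cell genes, 5 of 6 NK cell genes, 6 of 7 mast cell genes and 6 of 7 dendritic cell genes. The B cell gene that was measured was Ebf1, at 9.49 to 12.25 in all cultures. Of 5 genes of megakaryocytes and platelets, Pf4 (platelet factor 4), which macrophages can also express, read 9.26, 10.76, 11.31 and 11.11 in WT and at most 5.12 elsewhere, whereas Ppbp read 10.09 to 10.60 in WT, 3.91 to 4.61 in KO and 10.55 to 11.11 in S5. Of 9 osteoclast genes, 4 were in the low range on all 12 arrays. Of the 9, 3 were called higher in WT than in KO and 1, Ctsk (cathepsin K), was called lower (-1.05, limma adjusted p = 0.0139). Over all genes, 17.2 percent were called higher and 21 percent lower. Mmp9, a gelatinase that macrophages also make, read 11.87 to 12.04 in WT, 6.57 to 7.12 in KO and 4.11 to 5.39 in S5.

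**Figure D4:**
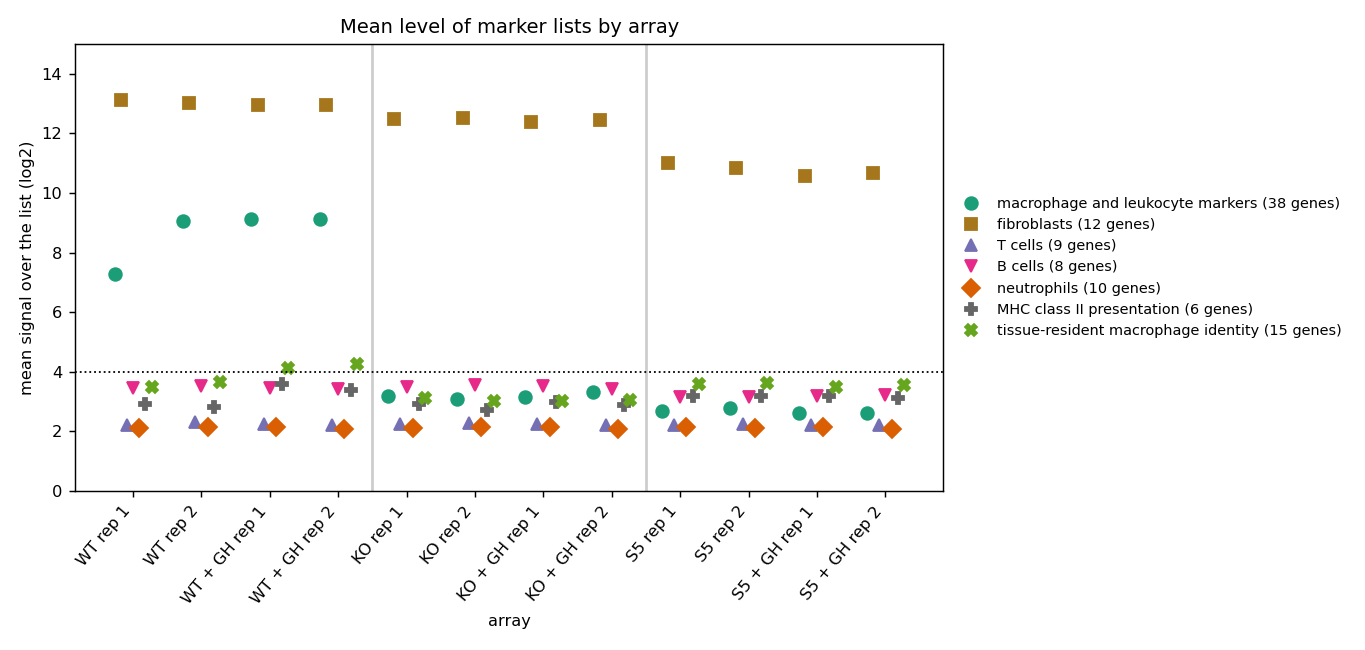
Mean log2 signal of each marker list (symbols) on each of the 12 arrays; the dotted line is the bound of the low range at 4. The 38 macrophage and leukocyte markers average 7.27 on untreated WT replicate 1 and 9.05 to 9.14 on the other WT arrays, 3.09 to 3.30 in KO and 2.60 to 2.76 in S5, while T cell, B cell and neutrophil lists stay under 4 on every array and the fibroblast list lies at 10.58 or more.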

How the data were processed

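Total RNA of the cultures was extracted with TRIzol, labelled as biotinylated cRNA and hybridised to Affymetrix arrays, per the labels' protocols. The deposited values (0.99 to 15.95) were taken as log2 signal; per the submitters' processing notes GCOS and RMA were used, with no version or setting. No label states the scale, the cause of the low range below 4 or the genome build. Of 45101 probe sets, 34945 were paired with 1 gene by the platform annotation; 64 control probe sets, 9160 with no gene and 932 with several were left out. Each of 18193 genes was represented by its brightest probe set, by mean over all arrays.

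A linear model with a mean per group was fitted to all 12 arrays with limma 3.58.1 in R 4.3.3 (6 residual and 1.2 prior degrees of freedom), with two-sided moderated tests and Benjamini-Hochberg adjustment over all genes at 0.05. Genotypes were compared with treatments pooled, GH within each genotype, and responses with each other. Before a fold was computed, a group with all arrays below 4 was set to 4, which gives "at least" folds; none is given where that left no difference. The fit was tested on simulated data. Alternatives were quantile normalization, centring, a trended prior, other probe set rules, filters on low values, array weights, a replicate block, fewer groups and each array left out.

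The markers, lists, bound and alternatives were chosen with earlier results of these data known. All 38 markers could be named. From other lists the first 3 genes and up to 4 called genes with the smallest adjusted p between WT and KO could be named.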

Additional observations from a re-analysis of the deposited data

Results flagged for a closer look

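The response of Lcp2 to growth hormone was called different between cultures by a test of the difference itself. No response of Lcp2 could be measured in KO or S5, so the call rests on the change in WT. The WT response exceeded the KO response by 2.23 and the S5 response by 2.20 on the log2 scale (limma's interaction contrasts, adjusted p = 3.8e-05 and 3.42e-05). Both treated WT arrays were higher than both untreated arrays, but the untreated WT arrays and all KO and S5 arrays were in the low range, so the sizes are of the values as deposited and only a rise of at least 1.75-fold in WT was measured. The calls held under all 22 alternatives, but all of these use KO or S5 values in the low range, which moved little.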

How the results depend on the processing

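The counts of markers called between genotypes were within 1.5 times the reported ones under every alternative run, at 29 to 37 for WT against KO and 30 to 37 for WT against S5, with 29 and 30 on untreated arrays alone. With each array left out in turn they were 33 to 36, 33 to 36 and, for KO against S5, 6 to 7. Growth hormone counts were less steady. In WT 4 markers became 1 with only the groups compared, and 2 to 23 with an array left out, with 13 without untreated replicate 1, 23 without replicate 2 and 2 without treated replicate 2; in S5 0 became 1 with array weights, and 0 to 1 with an array left out. The count for the WT minus KO response, 1 as reported, was 2 with the mean of the gene's probe sets and with genes low in all groups left out. For WT minus S5 it was 2 with quantile normalization, centring, the trended prior, low genes left out, values below 4 set to 4 and array weights, and 3 with the mean of the gene's probe sets. Both lay between 1 and 21 with an array left out. Without untreated WT replicate 1, 24 of 38 markers had a negative WT growth hormone change, against 5 in the main fit. Without replicate 2 it was 1. Reversals are named here only for markers called in the main fit or in the fit with the array left out. Without replicate 1 the WT change reversed in this sense for Fcgr1 (-1.09), Trem2 (-0.60), Clec4n (-0.43) and C1qc (-0.60). So did the response differences of Fcgr1 (-1.07 against KO, -1.08 against S5), Trem2 (-0.60, -0.57) and C1qc (-0.60, -0.61). Without replicate 2 the reversals were those of Cx3cr1 (1.25 in WT, 1.26 and 1.24 as differences) and Fcgr3 (1.03, 1.05 and 1.08). The cause of these shifts was not tested. The median difference between WT and KO, 5.72, was 3.68 with the mean of the gene's probe sets and 4.80 with values below 4 set to 4. Same-numbered arrays did not deviate together (correlations between groups from -0.36 to 0.20), and the replicate block gave 35 markers for WT against KO, where Trem2 lost its call, and changed no other count. The 2 arrays per group and the low range limit what can be seen.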
